A study of Mus musculus with 3 samples.

Results

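The cells described here are common lymphoid progenitors (CLP) of mouse bone marrow that held RNA of the transcription factor Ebf1 but no detected RNA of Pax5. A CLP cell was a member when it had 4000 or more unique molecular identifiers (UMIs, counts of captured RNA molecules), 500 or more detected genes, at most 10% mitochondrial UMIs, 2 or more Ebf1 UMIs, 0 Pax5 UMIs, at most 1 Mpo UMI and fewer than 8 Irf8 UMIs. This left 211 members of the 681 CLP cells that passed the depth and quality limits, of 979 CLP barcodes and 2701 barcodes in the series. The members were chosen by their measured counts of Ebf1, Pax5, Mpo and Irf8, so the levels of these 4 genes are given only as a description: a member held 2 to 30 Ebf1 UMIs with a median of 5, and 43 members held 10 or more.

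Cells came from C57BL/6J mice, with no genotype or treatment given in the labels for the bone marrow samples. LMPP (lymphoid-primed multipotent progenitors, sorted as cKit+ Sca1+ Flt3+ IL7Ra- B220-), CLP (cKit+ Sca1+ Flt3+/- IL7Ra+ B220-) and pro-B cells (cKit+ Sca1- Flt3- IL7Ra+ B220+) were each profiled as 1 droplet library with Chromium 3-prime v2 chemistry. The number of animals behind a library is not given, and cells of 1 library are not replicates, so no test was made and intervals (95%, exact) cover counting error only. Members were compared with the 276 CLP cells of the same depth limit that had 0 Ebf1 UMIs. A matched comparison used the 180 of these that also met the Pax5, Mpo and Irf8 limits, since 66 of the 276 had 8 or more Irf8 UMIs and 29 had more than 1 Mpo UMI. Further groups were 71 CLP cells with exactly 1 Ebf1 UMI under the same limits, 46 CLP cells with 2 or more Ebf1 UMIs that had Pax5 UMIs under the same Mpo and Irf8 limits, 699 pro-B cells and 520 LMPP cells.

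Levels are a gene's UMIs per 1000000 UMIs (CPM) of a group's summed counts. The members' sum was 1482581 UMIs, against 2163328 for the cells without Ebf1, 1338899 for the matched cells and 401314 for the cells with Pax5. Median depth was 6670 UMIs per member and 7606, 7212.5 and 7745 in those groups in that order. Mitochondrial UMIs made up 3.16% of the members' sum and 2.998% of that of the cells without Ebf1. The CLP library shared 2 barcode sequences with pro-B and 3 with LMPP, and 1 of these belonged to a member. A doublet caller marked 6 members, which were kept. With all cells that it marked left out, the 235 values for named genes lay within the counting interval of the reported ratio.

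Ebf1 and Pax5 are transcription factors of the B lineage. Ebf1 acts early, together with the E proteins and Foxo1, and activates genes of the pre-B cell receptor. Pax5 acts after it and holds cells to the B lineage. The pre-B receptor pairs an immunoglobulin heavy chain with the surrogate light chain, made of Vpreb and Igll1 proteins, and signals through Cd79a and Cd79b.

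The highest ratios of members to cells without Ebf1 were those of surrogate light chain, receptor signalling and recombination genes. A gene was called different at a ratio of 2 or more with 50 CPM or more in the higher group. Of 2524 genes tested 38 were called higher in members (1.51%), 37 of them apart from Ebf1 itself, and 38 were called lower (1.51%), while 97.0% lay within 2-fold. The median log2 ratio over all tested genes was -0.06. The matched cells gave 39 higher calls (1.56%) and 15 lower calls (0.599%) among 2504 genes. Of the higher calls 34 were shared by both comparisons, 89.5% of the first list and 87.2% of the second.

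**Figure D1:**
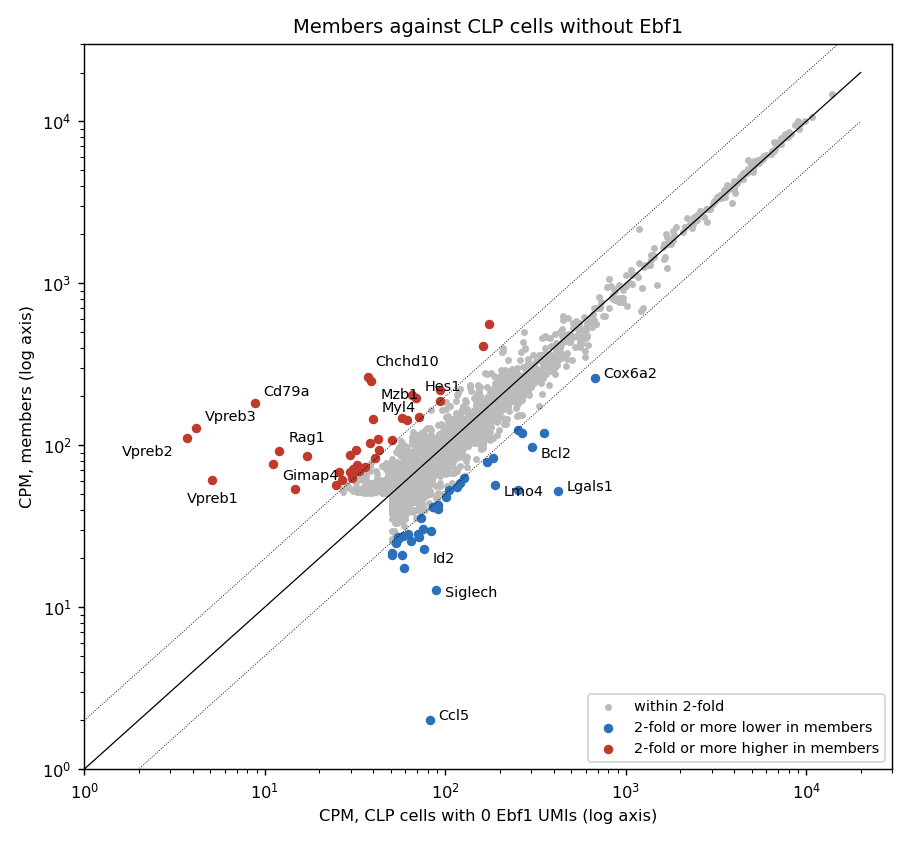
Each point is 1 of the tested genes other than Ebf1, Pax5, Mpo and Irf8, with its CPM in CLP cells without Ebf1 on the x axis and in the members on the y axis, both log axes; the solid line marks equal levels and the dotted lines a ratio of 2. Vpreb3 at 128 against 4.16 CPM and Vpreb2 at 111 against 3.70 CPM lie farthest above the line, and Ccl5 at 2.02 against 81.8 CPM farthest below it.

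Vpreb3, which encodes a protein tied to surrogate light chain and light chain assembly, had 190 UMIs in 39 of the 211 members, with 0 as the lowest and median count and 25 as the highest. In CPM it was 128 (111 to 148) in members and 4.16 in cells without Ebf1, a ratio of 30.8 (log2 4.95, interval 3.99 to 6.10). The 5 members with the most Vpreb3 held 51.6% of its UMIs, and without them the log2 ratio was 3.94. Vpreb2, a surrogate light chain gene, had 164 UMIs in 77 members against 8 UMIs in 3 of the 276 cells without Ebf1 (log2 4.90, interval 3.89 to 6.14). Its paralog Vpreb1 had 91 UMIs in 37 members, 61.4 CPM against 5.08 (log2 3.59, interval 2.69 to 4.65). Vpreb1 and Vpreb2 are near-identical copies, so reads could have been split or lost between them, and their single values are uncertain. Igll1, the other surrogate light chain component, stayed at 24.3 CPM in members, below the 50 CPM limit, with 36 UMIs in 14 cells.

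Cd79a, which carries the receptor's signal into the cell, was found in 90 members and reached 17 UMIs in the highest. Its level was 182 CPM (161 to 205) in members against 8.78 CPM in cells without Ebf1, a ratio of 20.7 (log2 4.37, interval 3.70 to 5.13). Cd79b, its partner chain, differed less, at 75.5 against 32.4 CPM (log2 1.22, interval 0.78 to 1.68). Rag1, the cutting subunit of the V(D)J recombinase, was at 91.7 CPM in members and 12.02 CPM in cells without Ebf1 (log2 2.93, interval 2.32 to 3.60). Rag2, the other subunit, was at 49.2 against 22.7 CPM (log2 1.12, interval 0.58 to 1.67) and missed the level limit. Dntt, which adds bases at recombined ends, was found in 210 of the 211 members, at 2027 CPM against 1660 CPM in cells without Ebf1.

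The stretches before the starts of 5 of these higher genes are shown because Ebf1 and the E proteins are known to act together at B lineage genes. They were read from RefSeq on GRCm38.p6, 5′ to 3′ on the gene's strand, from 250 bases before the RefSeq start up to the start or to the first GENCODE M21 exon of the gene. Capitals mark CANNTG, the E-box, and CCCNNGGG, the core of the Ebf1 motif; both patterns read the same on either strand. The Vpreb3 stretch is chr10:75948050-75948299 (+) and lies outside the exons but inside the annotated span of the gene. The others are Vpreb2 chr16:17980315-17980427 (+), Cd79a chr7:24897247-24897380 (+), Rag1 chr2:101649533-101649782 (-) and Foxo1 chr3:52268087-52268335 (+), all upstream of the annotated exons.
Vpreb3: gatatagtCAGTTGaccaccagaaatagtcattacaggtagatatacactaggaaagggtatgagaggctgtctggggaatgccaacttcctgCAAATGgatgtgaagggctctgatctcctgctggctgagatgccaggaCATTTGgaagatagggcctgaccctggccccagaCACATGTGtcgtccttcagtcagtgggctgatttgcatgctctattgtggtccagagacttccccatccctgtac
Vpreb2: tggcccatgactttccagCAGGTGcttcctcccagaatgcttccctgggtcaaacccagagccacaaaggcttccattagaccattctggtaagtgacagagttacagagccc
Cd79a: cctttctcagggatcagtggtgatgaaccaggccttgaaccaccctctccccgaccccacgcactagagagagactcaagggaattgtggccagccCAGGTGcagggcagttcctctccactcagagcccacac
Rag1: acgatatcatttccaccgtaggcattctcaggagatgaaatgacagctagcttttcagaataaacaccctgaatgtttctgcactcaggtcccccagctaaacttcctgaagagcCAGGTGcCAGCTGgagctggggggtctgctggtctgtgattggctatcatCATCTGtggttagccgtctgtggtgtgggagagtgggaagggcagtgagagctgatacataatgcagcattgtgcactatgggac
Foxo1: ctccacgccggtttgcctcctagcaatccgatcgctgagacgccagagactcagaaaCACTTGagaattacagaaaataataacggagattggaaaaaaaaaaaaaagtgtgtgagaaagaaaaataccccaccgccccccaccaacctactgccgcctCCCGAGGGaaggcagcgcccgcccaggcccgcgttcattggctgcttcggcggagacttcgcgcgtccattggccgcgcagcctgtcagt

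In the full 250 bases CANNTG occurred 5 times for Vpreb3, with the pair nearest the start overlapping, 3 times for Rag1 and 2 times each for Vpreb2 and Cd79a. It occurred 1 time each for Vpreb1 and Foxo1. CCCNNGGG was absent from the windows of Vpreb3, Vpreb2, Cd79a, Vpreb1 and Rag1, and occurred 1 time for Foxo1. Of 32851 mouse promoter windows of this length, 66.2% held CANNTG at least 1 time, with a median of 1 per window, and 11.8% held CCCNNGGG. CCCNNGGG was found in the windows of 7 of the 31 higher genes with a RefSeq entry, among them Foxo1, Gimap4 and Myl10, and of 5 of the 29 lower genes with one. A gene was counted when any of its windows held the letters, so these counts cannot be set against the share of single windows. A match is a description of letters, not a binding site. The Vpreb1 and Vpreb2 windows share an unbroken run of 91 identical bases, which starts 94 bases before the Vpreb1 start and 238 bases before the Vpreb2 start.

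Chchd10 and Vpreb3, both called higher, are close neighbours in the genome. Chchd10, a mitochondrial protein gene (chr10:75933130-75937747, GRCm38, + strand), ends 5.31 kb before the annotated start of Vpreb3 (chr10:75943057-75949657, + strand). Chchd10 was at 263 CPM in members and 37.4 CPM in cells without Ebf1 (log2 2.81, interval 2.46 to 3.18). Vpreb1 lies 4.42 kb from Igll1 on chromosome 16, and Rag1 lies 5.75 kb from Rag2 on chromosome 2 in opposite orientation, but Igll1 and Rag2 missed the level limit and were not called. Vpreb2 lies 1110 kb from Vpreb1.

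Other genes above the threshold belonged to several functions. Mzb1, an endoplasmic reticulum protein of B lineage cells, was at 250 CPM in members against 38.8 CPM (log2 2.69), in 156 of the 211 members. Gimap4, a GTPase of lymphocytes, was at 76.9 against 11.1 CPM (log2 2.79), and its family members Gimap7 and Gimap9 were called too at log2 ratios of 1.21 and 1.07. The myosin light chain genes Myl4 and Myl10 were at 144 against 39.8 CPM and 559 against 175 CPM. Hes1, a target of Notch signalling, was at 196 CPM against 68.4 CPM (log2 1.52, interval 1.23 to 1.81), while Notch1 itself was at 150 and 158 CPM. Rgcc, Arl5c, Dyrk4 and Lax1 had log2 ratios between 1.42 and 1.65.

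By list, 5 of the 9 tested genes of the pre-B receptor list, which also covers other surface proteins of B cells, were higher (Cd79a, Cd79b, Vpreb1, Vpreb2 and Vpreb3) and 0 lower, with a median log2 ratio of 1.11 over the 12 with enough counts, beside -0.05 over all genes with 10 or more UMIs. All 5 met the 50 CPM limit in the members only, so their being tested was not independent of their being higher. Of all tested genes 1.51% were called higher and 1.51% lower. Among B lineage regulators only Foxo1, which encodes a factor upstream of Rag1 and Ebf1, was called of 7 tested, at 56.7 against 24.96 CPM (log2 1.18, interval 0.67 to 1.70). Ikzf1, a regulator of all lymphoid cells, was at 195 and 198 CPM, and Tcf3, the gene of the E2A proteins, was at 86.3 against 127 CPM. Pou2af1, a B cell coactivator, had 15 UMIs in members and 5 in cells without Ebf1, and Lef1 had 1 and 5. Of the 5 tested V(D)J recombination genes Rag1 alone was called, and Xrcc6, a DNA end-joining factor, was at 399 against 208 CPM, inside 2-fold. None of the 10 early lymphoid genes was called in either direction against all cells without Ebf1, a count near the share of all genes. Il7r, the receptor of the sort, was at 165 against 95.7 CPM.

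Ly6d, a surface protein of B-biased CLP, differed in direction with the choice of comparison cells. It was at 767 CPM in members and at 917 CPM in all cells without Ebf1 (log2 -0.26), but at 213 CPM in the matched cells (log2 1.85, interval 1.66 to 2.04). Of the 1984 Ly6d UMIs in cells without Ebf1, 1639 were in 60 cells of a cluster led by Ly6c2, which had Siglech and the S phase genes Asf1b and Clspn among its 10 leading genes. After each cell was thinned to 4000 UMIs, Ly6d was detected in 76.3% of members (70.0 to 81.9), 33.9% of matched cells (27.0 to 41.3) and 83.3% of the cells with high Irf8.

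**Figure D2:**
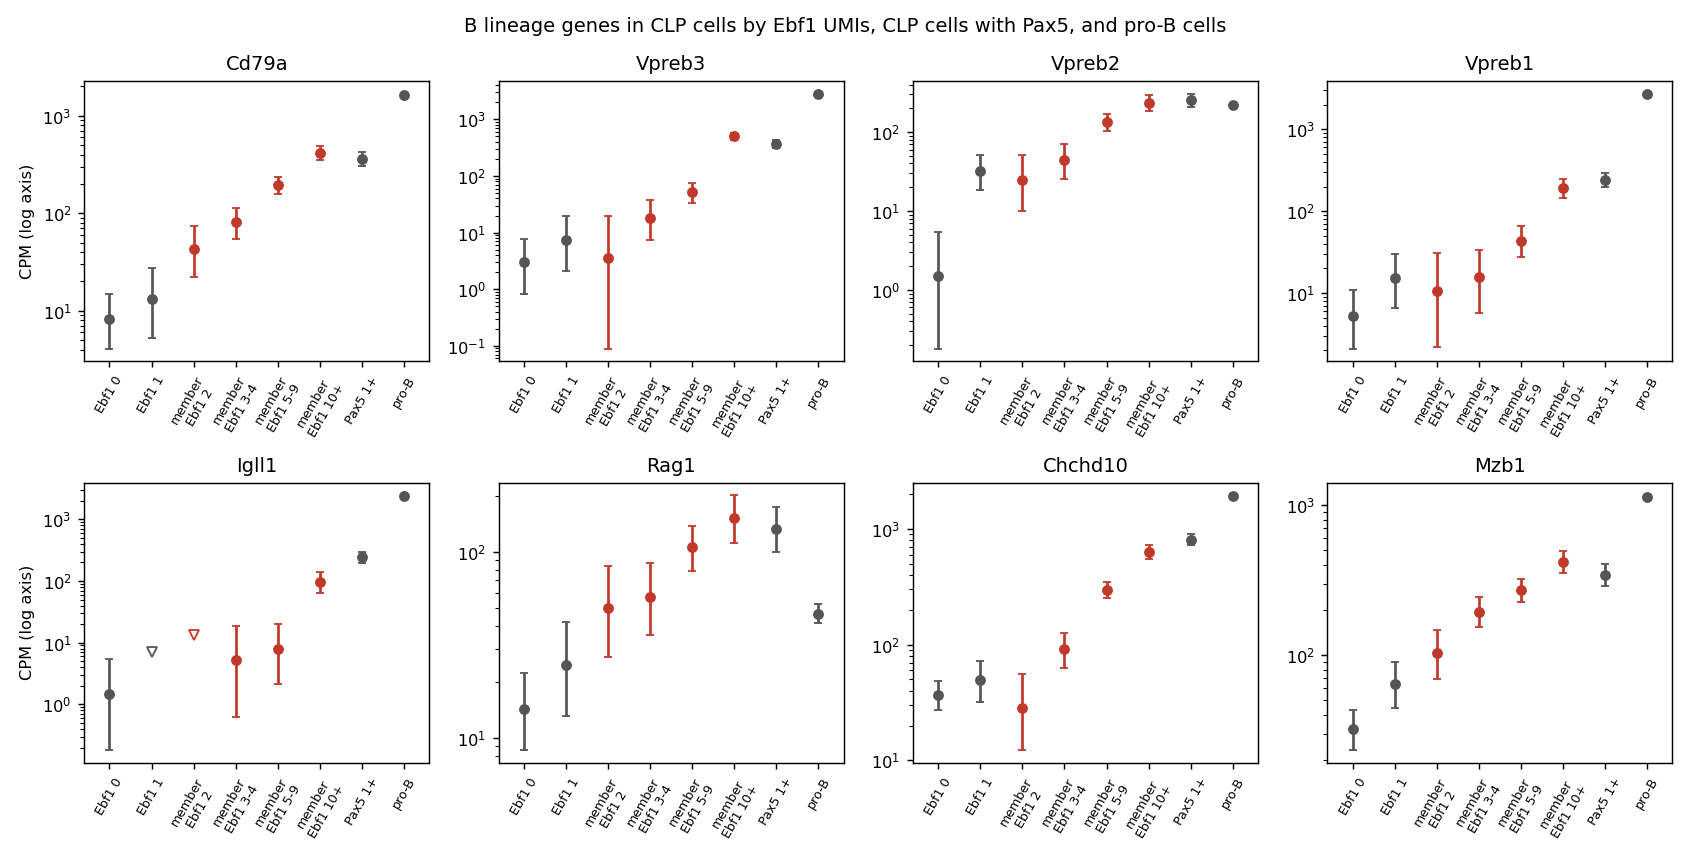
Points give the CPM (log axis) of 8 genes with exact 95% Poisson intervals in matched CLP cells with 0 Ebf1 UMIs, CLP cells with 1, the members in 4 classes of Ebf1 UMIs (red), CLP cells with Pax5 and pro-B cells; an open triangle marks the upper limit where no UMI was found. Cd79a and Mzb1 are higher in each class of more Ebf1, and Igll1 stays at or under 8.0 CPM in the 3 lower classes before 96.1 CPM in the highest.

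Among the members themselves Cd79a, Vpreb2, Vpreb3, Chchd10, Rag1 and Mzb1 stood higher where Ebf1 was higher, while Rag2 and Ly6d followed no such order. The 4 classes were members with 2 Ebf1 UMIs (38 cells), 3 to 4 (57), 5 to 9 (73) and 10 or more (43), with median depths of 7240.5, 6449, 6544 and 6670 UMIs. Cd79a was at 42.5, 80.4, 193 and 416 CPM in these classes in order. Vpreb3 was at 3.54, 18.2, 51.7 and 500 CPM, so that most of its RNA lay in the class with the most Ebf1. The lowest class did not stand apart from the 7.55 CPM of Vpreb3 in cells with 1 Ebf1 UMI. Vpreb2 was at 24.8, 44.1, 133 and 234 CPM, and cells with 1 Ebf1 UMI had 32.1 CPM, within the interval of the lowest class. Chchd10 was at 28.3, 90.8, 298 and 631 CPM, with the lowest class near the 36.6 CPM of the matched cells. Rag1 spread less, at 49.6, 57.0, 106 and 151 CPM. Rag2 was at 42.5, 31.1, 61.7 and 57.7 CPM, and Ly6d at 737, 687, 903 and 673 CPM. Igll1 was at 0, 5.19, 7.96 and 96.1 CPM, but 1 member held 17 of its 30 UMIs in the highest class, which was at 43.4 CPM without that cell. Vpreb3 in that class was at 437 CPM without its highest cell.

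Other genes stood lower where Ebf1 was higher. Cd34, a surface protein of early progenitors, was at 156, 143, 133 and 57.7 CPM over the 4 classes, against 302 CPM in the matched cells and 0 UMIs in pro-B. Bcl2, a survival factor, was at 145, 127, 89.5 and 32.0 CPM against 238 CPM in the matched cells. Cox6a2 was at 500, 264, 189 and 144 CPM, and Dntt at 2335, 2134, 2004 and 1653 CPM. Flt3, the cytokine receptor that marks lymphoid progenitors, stayed between 279 and 365 CPM in all 4 classes and was at 5.94 CPM in pro-B. The classes were set by the counts of the same cells, so this order is a description.

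**Figure D3:**
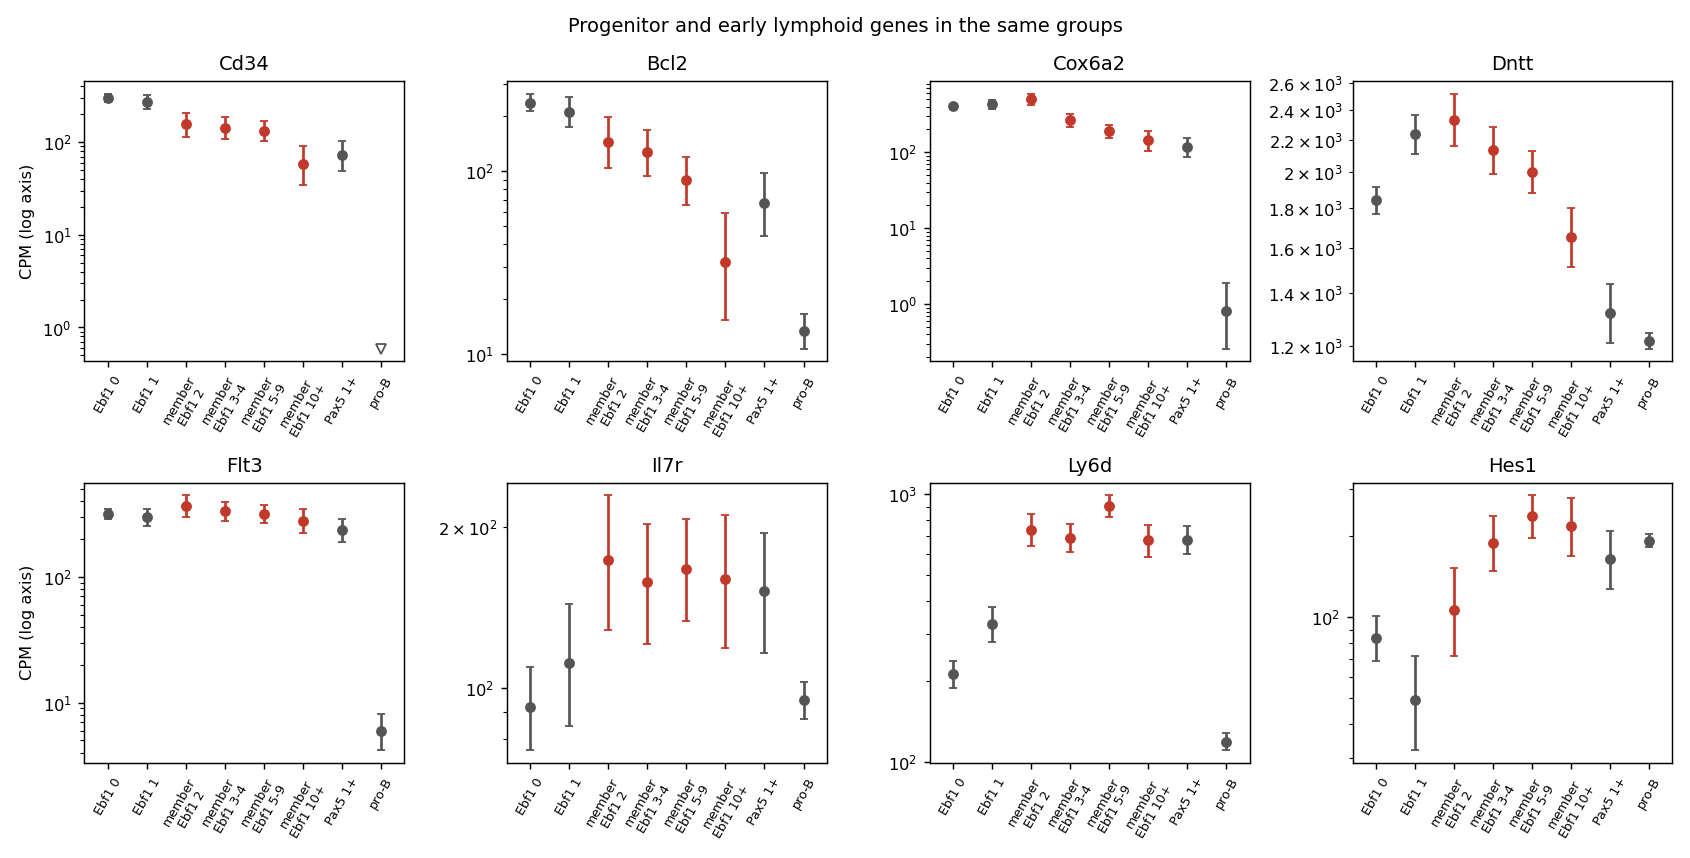
The same groups and intervals for 8 progenitor and early lymphoid genes, in CPM on a log axis whose range differs between panels. Cd34 and Bcl2 are lowest among the members in the class with 10 or more Ebf1 UMIs, at 57.7 and 32.0 CPM, while Flt3 stays between 279 and 365 CPM in the members.

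Genes lower in the members depended more on which cells stood on the other side. The matched comparison held 11 of the 38 lower calls, 28.9% of the first list and 73.3% of the second. Those in both included Cd34 (log2 -1.03, and -1.29 against the matched cells), Bcl2 (-1.62 and -1.28), Id2 (-1.73 and -2.01), Lmo4 (-1.73 and -1.92) and Gcnt2 (-1.75 and -1.79). Id2 encodes an inhibitor of E proteins and was at 22.9 CPM in members against 76.3 CPM. Of its 165 UMIs in cells without Ebf1, 73 were in the 7 cells of a cluster led by Ikzf3, Bcl11b and Gata3, and against the matched cells without that cluster the log2 ratio was -0.78, inside 2-fold. Lmo4, a LIM-domain cofactor, had 167 of its 407 UMIs in the same 7 cells, and without them its log2 ratio against the matched cells was -0.71. Cd34, Bcl2 and Gcnt2 stayed past 2-fold in that comparison, at -1.33, -1.19 and -1.83.

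The T and innate lymphoid list had 1 of 5 tested genes lower against all cells without Ebf1 (Id2) and 3 of 6 against the matched cells (Gata3, Id2 and Tox), beside 1.51% and 0.599% of all genes, with 0 higher in either. In each case the called genes met the 50 CPM limit in the comparison cells only. Without the 7 cells of the Ikzf3-led cluster, 0 of 4 were called against the matched cells, beside 0.48% of all genes. Gata3, a factor of T and innate lymphoid cells, had 1 UMI in all members and 74 UMIs in 16 cells without Ebf1, 60 of them in those 7 cells. Ccl5, a chemokine, had 3 UMIs in members and 177 UMIs in 16 cells without Ebf1. Against the matched cells without the 7, the log2 ratios were -3.89 for Gata3 and -5.77 for Ccl5, still from few comparison cells. The T lineage markers Cd3e, Cd3g and Bcl11b had 0 UMIs in members, and all 20 UMIs of the remaining marker, Ptcra, were in 1 member.

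Dendritic genes were lower mainly against the unmatched cells. Siglech, a plasmacytoid dendritic receptor, was at 12.8 CPM in members, 88.3 CPM in all cells without Ebf1 and 18.7 CPM in the matched cells. The dendritic list had 3 of 6 tested genes lower (Siglech, Bst2 and Cox6a2) in the first comparison and 0 of 5 in the second. Siglech met the 50 CPM limit in the cells without Ebf1 only, so its being tested was not independent of its being lower. Of all genes 1.51% and 0.599% were lower, so the 0 of 5 is near the share of all genes. The summed plasmacytoid dendritic markers, all 5 detected, ranged from 0 to 26 UMIs per member (median 4), 0 to 93 in all cells without Ebf1 (median 8) and 0 to 30 in the matched cells (median 6), with Irf8, which the rule limits, among them. Lgals1, a galectin, was at 51.9, 421 and 158 CPM in the same order of groups and stayed lower in both (log2 -3.02 and -1.61).

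Cell cycle genes differed in the same way. The S phase list had 5 of 12 tested genes lower in members (Mcm3, Pcna, Gmnn, Ung and Fen1, median log2 -0.89), beside 1.51% of all genes. Mcm3, Gmnn, Ung and Fen1 met the 50 CPM limit in the cells without Ebf1 only. Their being tested was therefore not independent of their being lower. Against the matched cells 0 of 10 tested genes of this list were lower (median -0.41), beside 0.599% of all genes. Cells with 3 or more S phase UMIs after thinning made up 49.8% of members (42.8 to 56.7), 64.4% of matched cells (57.0 to 71.4), 92.4% of the cells with high Irf8 and 92.8% of pro-B cells. The G2/M share was 7.58% in members and 7.22% in matched cells, against 86.1% in pro-B. Top2a, a G2/M gene, had a log2 ratio of -1.11 against all cells without Ebf1 and 0.16 against the matched cells.

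Detection per cell shows how unevenly the B genes were spread. After thinning to 4000 UMIs, Cd79a was found in 35.1% of members (28.6 to 41.9), Vpreb3 in 14.7% (10.2 to 20.2) and Rag1 in 27.0% (21.1 to 33.5). Without thinning these shares were 42.7%, 18.5% and 40.8%. The same genes were found in 2.90%, 1.45% and 3.26% of thinned cells without Ebf1, and in 1.52%, 0% and 0% of the 66 such cells with high Irf8 (0 of 66 cells allows a share up to 5.44%), whose median depth was 8453 UMIs. Of these 3 genes, 108 members (51.2%) showed none, 57 showed 1, 33 showed 2 and 13 showed all 3. Among the 276 cells without Ebf1, 255 showed none, 21 showed 1 and 0 showed more. Cd79a and Vpreb3 were found together in 24 members, 11.4% (7.43 to 16.5) beside 5.15% from the product of the single shares, and Cd79a and Rag1 together in 35, 16.6% beside 9.47%. Not all pairs of B genes lay above the product. Vpreb1 and Rag1 were found together in 2.84% beside 3.84%. For Rag1 and Mzb1 it was 17.5% (12.7 to 23.4) beside 15.7%, and for Rag1 and Rag2 5.69% (2.97 to 9.72) beside 5.25%. Cd34 and Cd79a were found together in 24 members, 11.4% beside a product of 12.5%.

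**Figure D4:**
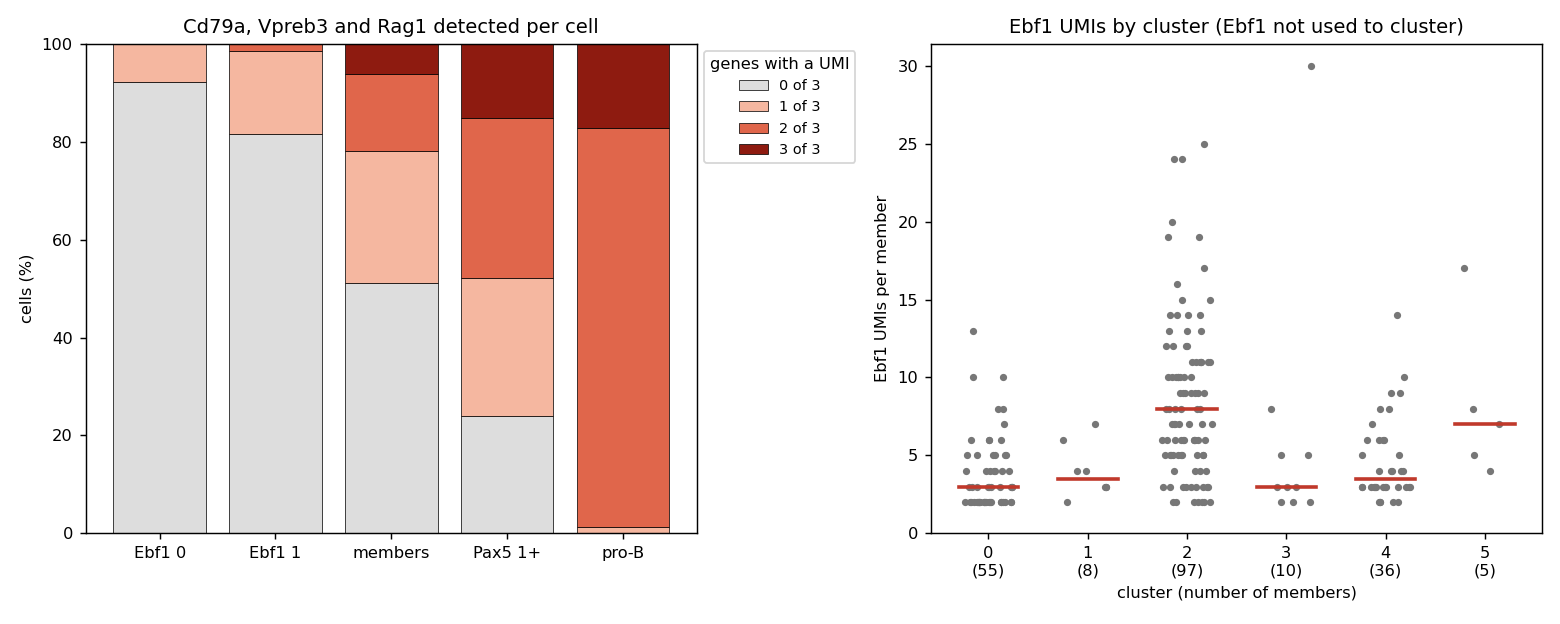
Left, bars give the percent of thinned cells with a UMI of 0, 1, 2 or 3 of Cd79a, Vpreb3 and Rag1; right, each point is a member with its Ebf1 UMIs by cluster, and red lines are medians. Members lie between cells with 1 Ebf1 UMI and cells with Pax5 at left, and the 97 members of cluster 2 have a median of 8 Ebf1 UMIs at right.

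Clustering of the CLP cells without the 4 rule genes among its features placed 97 members (46.0%) in a cluster led by Igll1, Vpreb3, Dlg2 and Vpreb2, which also held 41 of the 46 cells with Pax5 and 2 of the 276 cells without Ebf1. A further 55 members were in a cluster led by Tmem245, Cd34 and Ifitm1, 36 in one led by Pcgf2 and Ccl5, 10 in the one led by Ly6c2, 8 in one led by Abhd2 and Notch2 and 5 in one led by the mitotic genes Cdc25c and Hmmr. None was in the cluster led by Ikzf3. Ebf1 took no part in the clustering, but its counts chose the members, so its levels by cluster are only a description. It had a median of 8 UMIs and 1252 CPM (1168 to 1340) in the members of the B-led cluster. In the 55 and the 36 it had medians of 3 and 3.5 UMIs and levels of 494 CPM (429 to 565) and 688 CPM (588 to 800).

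The 114 members outside the B-led cluster still held more of several B genes than cells without Ebf1, although the clusters themselves were drawn from these genes. Cd79a was at 58.4 CPM in them, Vpreb2 at 38.9, Rag1 at 42.6, Mzb1 at 156 and Hes1 at 170 CPM. Vpreb3 was at 12.2 CPM and Cd79b at 31.6 CPM, the latter beside 32.4 CPM in cells without Ebf1 (log2 -0.033). Cecr2 had all of its 17 UMIs in the 97 members of the B-led cluster.

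Against the 46 CLP cells with Pax5, most of them (31) with a single Pax5 UMI, members had lower surrogate light chain levels. The groups were not matched on Ebf1, with a median of 11 Ebf1 UMIs in the cells with Pax5 and 5 in members. Of 2557 genes tested 37 were called higher in members (1.45%) and 61 lower (2.39%), the latter including Pax5. Igll1 was at 24.3 against 242 CPM (log2 -3.32, interval -3.91 to -2.75), and -2.93 without the Pax5 cell with the most Igll1. Vpreb1 was at 61.4 against 242 CPM (log2 -1.98), Vpreb3 at 128 against 364 CPM (-1.51), Vpreb2 at 111 against 252 CPM (-1.19) and Chchd10 at 263 against 807 CPM (-1.62). Cd79a was at 182 against 361 CPM (log2 -0.99, interval -1.28 to -0.69), just inside 2-fold. In the 43 members with 10 or more Ebf1 UMIs, Vpreb3 was at 500 CPM, and at 437 CPM without its highest cell, above the cells with Pax5. Cd79a in that class was at 416.5 CPM. Without its highest cell it was at 371 CPM, close to the 361 CPM of the cells with Pax5. Vpreb1 at 192 CPM, Chchd10 at 631 CPM and Igll1 at 96.1 CPM were below the cells with Pax5 in that class. Whether the differences go with Pax5 or with Ebf1 was not tested. Cecr2, a chromatin factor gene, was at 11.5 against 72.3 CPM (log2 -2.66, interval -3.61 to -1.74) in 15 of the 46 cells. Dqx1 was at 21.6 against 222 CPM, but 88 of its 89 UMIs were in 1 cell with Pax5, and without that cell the log2 ratio was 3.05. Cul9 likewise was at a log2 ratio of -2.44, and -0.71 without 1 cell.

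Some cell cycle and stem cell genes also passed the threshold against the cells with Pax5. The S phase list had 4 of 13 tested genes lower in members (Mcm3, Mcm4, Rrm2 and Gins2), beside 2.39% of all genes. All 4 met the 50 CPM limit in the cells with Pax5 only, so their being tested was not independent of their being lower. The S phase share was 49.8% in members and 76.1% (61.2 to 87.4) in cells with Pax5. Cox6a2 was at 258 against 117 CPM, and Ttc13, with the highest ratio among named genes at 50 CPM or more, at 86.3 against 17.4 CPM (log2 2.31, interval 1.22 to 3.65). Fnta, Fam117a, Polr3gl and Hist1h4i followed at log2 ratios between 1.56 and 1.65. Of 8 tested stem and multipotent genes 2 were higher in members, beside 1.45% of all genes. These were Hoxa9 and Mn1, both at 60.7 against 29.9 CPM (log2 1.02). Both met the 50 CPM limit in the members only, so their being tested was not independent of their being higher. Inside 2-fold were Cd34, at 124 and 72.3 CPM, and Flt3, at 322 and 234 CPM. Of the early lymphoid genes 0 of 10 were called, a count near the share of all genes. With 401314 UMIs the cells with Pax5 gave 50 CPM from 20.1 UMIs, so these calls rest on few counts.

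A count of 0 for Pax5 does not show that the RNA was absent: 342 of 699 pro-B cells (48.9%) had 0 Pax5 UMIs at a median depth of 7078.5 UMIs. Those pro-B cells had Cd79a at 1788 CPM and Igll1 at 2638 CPM, beside 1538 and 2198 CPM in pro-B cells with Pax5. Members were far below both, at 182 and 24.3 CPM. The same rule found 341 pro-B cells and 2 LMPP cells. Along the groups from matched cells through members and cells with Pax5 to pro-B, Cd79a was at 8.22, 182, 361 and 1645 CPM and Mzb1 at 32.1, 250, 344 and 1132 CPM. Pro-B was a separate library, so a difference between cells cannot be told apart there from a difference between libraries. Ribosomal protein genes made up 30.0% of the UMIs of pro-B cells and 43.1% of those of members, which also bears on CPM. Among these whole groups Rag1 and Gimap4 were instead highest in the cells with Pax5, at 132 and 112 CPM, and at 46.4 and 26.0 CPM in pro-B. In the 97 members of the B-led cluster alone they were at 153 and 120 CPM. For Ly6d (767 CPM in members, 675 CPM with Pax5) and Hes1 (196 and 164 CPM) the interval of the log2 ratio spanned 0, from -0.01 to 0.38 and from -0.14 to 0.66.

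Variation among members was measured as the variance over the mean of thinned counts, which is 1 for counting noise alone. Of 2265 genes with 50 CPM or more, 40 (1.77%) reached 2 or more, and the median was 1.09. Malat1, a nuclear RNA, was at 15.7, Hist1h2ap, a histone gene of dividing cells, at 11.9, Myo1c at 8.00 and Actb at 7.82. Vpreb3 was at 6.75, Vpreb1 at 3.87, Chchd10 at 3.51, Hes1 at 3.11 and Cd79a at 2.70, while Rag1 was at 1.30 and Mzb1 at 1.45. Ccl4, a chemokine, was at 5.56 and was found in 114 members with up to 33 UMIs. The 5 members with the most Myo1c held 47.1% of its 102 UMIs.

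**Figure D5:**
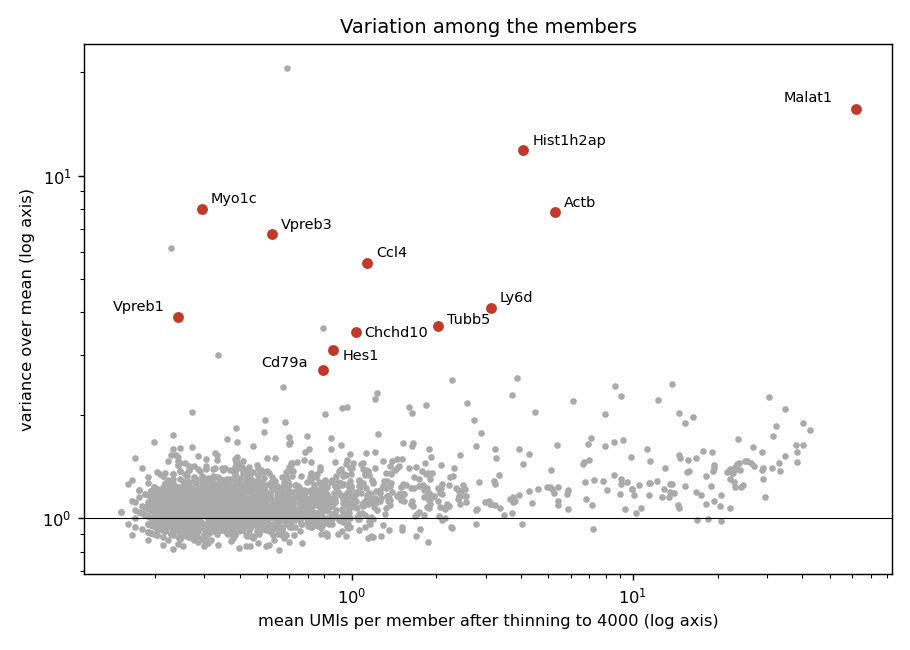
Each point is a gene with 50 CPM or more in the members, with its mean UMIs per thinned member on the x axis and variance over mean on the y axis, both log axes; named genes are red and the line marks 1. Vpreb3 at 6.75 and Myo1c at 8.00 lie above most genes of like mean; the highest grey point, at 20.6 (B930036N10Rik), and another at 6.13 (2810417H13Rik) are gene models without a proper name.

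Cells next to the limits gave the following values, as a description. Cd79a was at 42.5 CPM in the 38 members with 2 Ebf1 UMIs and 13.2 CPM in the 71 cells with 1. It was at 279 CPM in the 31 cells with 1 Pax5 UMI, and at 123 CPM in the 68 members with 1 Mpo UMI against 36.7 CPM in 20 cells with 2. For Irf8 it was 173 CPM in 10 members with 6 or 7 UMIs and 68.8 CPM in 4 cells with 8 or 9. For depth it was 117 CPM in 6 members with 4000 to 4500 UMIs and 281 CPM in 15 cells with 3500 to under 4000.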

How the data were processed

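Each library was deposited as a gene by barcode matrix of UMI counts without normalization. The submitters' processing notes name Cell Ranger and the mm10 build; its version, annotation and cell calling were not given in the sources used here. Per the labels about 3000 cells were loaded per library. The members, gene lists, markers and alternatives were chosen with earlier results of these data known. Counts were summed per group and divided by the group's total UMIs. Ratios have exact conditional Poisson intervals, levels exact Poisson intervals and shares Clopper-Pearson intervals, all 95%; they cover counting error only. A group at 0 was set to a floor of 3 UMIs, which is 2.02 CPM in members and 1.39 CPM in cells without Ebf1. No test was made, since each population was 1 library.

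Named genes were the 15 highest and 15 lowest ratios against cells without Ebf1, the 5 highest and 5 lowest against cells with Pax5, the 10 most variable, all members of 4 lists (B lineage regulators, pre-B receptor, V(D)J recombination, early lymphoid), up to 4 of each other list, and all markers, 164 in all, matched by Ensembl ID in GENCODE M21 (GRCm38). Rule genes, mitochondrial, Rpl and Rps genes and unnamed models were left out, and immunoglobulin genes are not analysed here. Some genes that the rule names are not reported here. Gimap7, Gimap9, Hoxa9, Mn1, Tox, Pcna, Ung, Fen1, Rrm2, Mcm3, Mcm4, Gins2 and genes that lead a cluster were named after their values were seen. For shares and variation each cell was thinned to 4000 UMIs. CLP cells were clustered from counts scaled to 10000 and logged, with 2000 variable genes, 20 components, 15 neighbours and Leiden resolution 0.5, without the rule genes. Doublets were scored with scrublet in scanpy (16 of 948 cells) and kept. The comparison of summed counts was tested on simulated counts. The software was scanpy 1.11.5 with leidenalg 0.10.2, SciPy 1.17.1, NumPy 2.4.6, pandas 2.3.3 and matplotlib 3.10.9 under Python 3.11.15. Alternatives changed the depth and Ebf1 limits, comparison cells, scaling, thresholds and single cells.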

Additional observations from a re-analysis of the deposited data

How the results depend on the processing

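Counts of genes against cells without Ebf1 (38 higher, 38 lower) stayed within 1.5 times under depth limits of 2000 and 6000 UMIs, an Ebf1 limit of 3, removal of doublet calls, equal weight per cell and scaling without mitochondrial and ribosomal genes (45 and 31, a shift of 0.05 in every log2 ratio). They moved to 24 lower with an Ebf1 limit of 1, 15 lower with matched cells, 92 and 116 at 20 CPM, 19 and 16 at 100 CPM, and 10 and 4 at 4-fold. Of the alternatives added after seeing the data, leaving out the Ikzf3-led and Ly6c2-led clusters gave 38 higher and 10 lower, matched cells without the Ikzf3-led cluster 38 and 12, and only members outside the B-led cluster 20 and 27. Top2a reversed to 0.158, 0.037 and 0.169 with matched cells, without both clusters, and with matched cells without the Ikzf3-led cluster. Cd79b reversed to -0.033 for members outside the B-led cluster, and Dqx1 to 3.05 against cells with Pax5 without 1 cell; beyond the cells left out, the cause was not tested. Against cells with Pax5 (37 and 61), scaling without mitochondrial and ribosomal genes gave 39 and 56. Genes with a variance over mean of 2 or more fell in number from 40 to 14 at 2000 UMIs, as thinning lowers this ratio by construction. Of 2853 values for named genes under all alternatives, 2611 lay within the counting interval of the reported ratio. These include 152 values under each of the 20 CPM, 100 CPM and 4-fold settings. Such settings leave a gene's ratio unchanged, so those values lay within the interval by construction. The 5 sign changes above were those of genes called 2-fold different. A further 136 values changed sign in genes that were not called, Ly6d among them. No paired analysis was possible because each population was 1 library. At 50 CPM a group's value rests on 74.1 UMIs in members, 108 in cells without Ebf1 and 20.1 in cells with Pax5.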
